A study of Mus musculus with 60 samples.

Results

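The gamma3 switch region lies beside Ighg3, the constant-region gene of IgG3, and its junctions were taken here as all those on chr12:114596000-114604999 (mm9), a 9 kb interval. The interval was chosen by junction density, around a local peak of junctions. This interval held 552 of 1219247 junctions in 60 libraries of CH12F3 cells, a mouse B-lymphoma line. Because the interval was placed on the peak, its density against the surrounding sequence is a description and was not tested. The series asks how inhibitors of the histone methyltransferase EZH2 affect chromosomal translocations in B cells, and the readout was LAM-HTGTS, a sequencing assay that amplifies outward from a fixed DNA break, the bait, to find the sites joined to it.

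Class switching replaces the constant region of an antibody by joining breaks in the mu switch region to breaks in a switch region further along the immunoglobulin heavy chain (Igh) locus. Activation-induced cytidine deaminase (AID) starts these breaks by deaminating cytosines in transcribed switch regions, and DNA ligase 4 seals breaks in classical end joining. CH12F3 cells switch mainly to IgA when given anti-CD40, IL-4 and TGF-β, so that gamma3 is not the main acceptor of this stimulus. In the mouse gene order of a RefSeq table, Ighg3 is the first gamma gene after Ighm and Ighd, followed by Ighg1, Ighg2b, Ighg2c, Ighe and Igha.

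All cells received anti-CD40, IL-4 and TGF-β for 72 h, and each background also received valemetostat, tazemetostat or the solvent DMSO. Tazemetostat inhibits EZH2, valemetostat inhibits EZH1 and EZH2, and their doses were not in the labels. Cells without AID (AID-KO) gave 3 valemetostat, 4 tazemetostat and 5 DMSO libraries. Cells without DNA ligase 4 (Ligase4-KO) gave 5 libraries per treatment, as did AID-WT cells that were also given idelalisib, an inhibitor of PI3Kδ. AID-WT cells without idelalisib gave 8 valemetostat, 5 tazemetostat and 5 DMSO libraries. The labels do not say how the knockouts were made or whether each is 1 clone, nor that replicates were separate cultures. The p-values then reflect library-to-library spread alone, and that spread may be technical.

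Ligase4-KO libraries held 35258 to 56900 junctions and the others 7419 to 22089. The lists came from 6 sequencing runs, told apart by their read names. All Ligase4-KO libraries shared 1 run. Tazemetostat and DMSO shared a run within AID-WT, and also within idelalisib-treated AID-WT. The valemetostat libraries of these 2 backgrounds shared a run of their own. Where the compared groups came from different runs, run and group cannot be told apart, which covers valemetostat against DMSO or tazemetostat in both AID-WT settings and every comparison between backgrounds except idelalisib against none under valemetostat. Shares are percents of a library's junctions and say where junctions lay, not how many a cell carried. All intervals for single counts are exact binomial (Clopper-Pearson) at 95% and cover counting error only, as does the limit of 3 counts used where none was seen.

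Inside the interval the junctions formed 1 narrow peak. Kilobases were counted on a fixed grid. The densest of them, chr12:114602000-114602999, called the densest 1 kb here, held 319 junctions, the kilobase below it 83 and the kilobase above it 123. A 1 kb window starting 200 bp higher, off the grid, would hold more. These central 3 kb held 525 of the 552 junctions, or 175 per kb, against 1.5 per kb in the 5 kb on either side of the interval. Of the other 6 kilobases of the interval, the fullest, chr12:114604000-114604999, held 10 junctions. The outermost junctions inside the interval stood at 114596011 and 114604968, and the nearest outside it at 114593799 and 114605014. The densest kilobase lay 61 kb from that of mu, with gamma1 at 87 kb, gamma2b at 112 kb and alpha at 162 kb.

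The 552 junctions used 501 distinct combinations of position and strand. Of these, 453 were seen in 1 library, 45 in 2 and 3 in 3 libraries. The 3 most recurrent were 114602990 on the plus strand, in 3 Ligase4-KO tazemetostat libraries, 114603009 on the plus strand and 114603123 on the minus strand, each in 3 groups. No library held the same gamma3 position and strand more than 1 time.

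Pooled over libraries, the gamma3 junctions were spread more widely in Ligase4-KO cells, though the test between libraries given below did not pass. The densest 1 kb held 65 of 168 Ligase4-KO junctions (38.7%), 189 of 280 with idelalisib (67.5%) and 65 of 104 in AID-WT (62.5%), all treatments pooled. The interquartile range of position was 1117 bp in Ligase4-KO, 686 bp with idelalisib and 808 bp in AID-WT. Ligase4-KO also gave 21 of the 27 junctions outside the central 3 kb, against 4 with idelalisib and 2 in AID-WT. But Ligase4-KO also gave the most junctions in all, with 669074, against 174921 with idelalisib and 189387 in AID-WT. Its densest 200 bp were chr12:114603000-114603199, with 30 junctions, which were also the densest in AID-WT, with 17. These 200 bp lie just above the densest 1 kb and are not counted in it. With idelalisib the densest 200 bp were chr12:114602400-114602599, with 47 junctions.

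In single libraries the densest 1 kb held 25.0, 61.1, 33.3, 33.3 and 30.8% of gamma3 junctions in Ligase4-KO DMSO, and 53.8, 73.3, 57.1, 55.6 and 84.6% in AID-WT DMSO. Replicate 2 of Ligase4-KO DMSO overlapped the AID-WT range and the other 4 libraries lay below it. The means were 36.7% ± 14.1 in Ligase4-KO and 64.9% ± 13.5 in AID-WT (SD, n = 5 each), a difference of -28.2 points (95% interval -49.8 to -8.27). This kilobase was chosen over DMSO libraries that include those compared. Of its DMSO junctions 42 came from AID-WT, 71 from idelalisib-treated AID-WT and 27 from Ligase4-KO. With treatments pooled, the 200 bp just above it held 17.9% of Ligase4-KO and 16.3% of AID-WT gamma3 junctions. Its own lowest 200 bp held 5.95 and 10.6%. The size of the difference thus depends on where the kilobase was placed, and other placements were not tested. The exact permutation test gave p = 0.0317 and, adjusted over 2 comparisons, 0.0635, so the difference did not pass. Without Ligase4-KO DMSO replicate 2 it was -34.3 with an adjusted p of 0.0159 by the same exact test, and over its 12 alternatives the adjusted p ran from 0.0159 to 0.171. A lower pooled share in the densest kilobase was also seen at the other peaks of Ligase4-KO, with 32.8% at mu against 61.6% in AID-WT, 34.6% against 50.3% at alpha and 47.7% against 67.2% at gamma2b, but not at gamma1, with 30.7% against 27.3%. Inhibitor and DMSO were also compared in position. In none of the 4 comparisons with 5 or more gamma3 junctions per library did the densest 1 kb or the central 3 kb pass (exact permutation tests, lowest adjusted p 0.635).

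**Figure D1:**
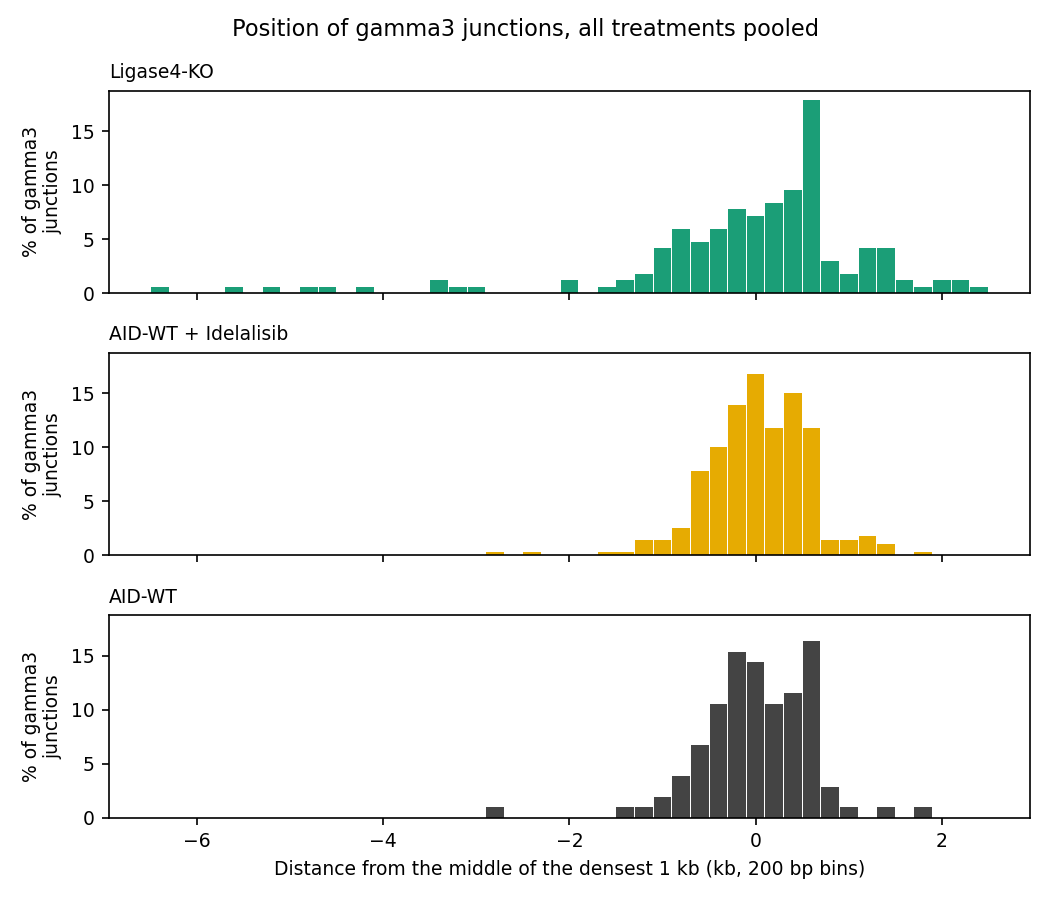
Percent of the gamma3 junctions of each background (vertical axis, all treatments pooled) in 200 bp bins, by distance in kb from the middle of the densest 1 kb (horizontal axis), for Ligase4-KO (168 junctions), AID-WT with idelalisib (280) and AID-WT (104). The Ligase4-KO junctions spread further to both sides, with 21 of 168 outside the central 3 kb.

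Without AID no gamma3 junction was seen. The AID-KO libraries held 0 of 185865 junctions in the interval, which allows a share of up to 0.00161%. They kept 58 Igh junctions, of which 3 lay in the mu interval and 4 in the alpha interval. In AID-KO DMSO the count was 0 in each of 5 libraries, against 13, 15, 14, 9 and 13 in AID-WT DMSO, where gamma3 made up 0.124% ± 0.0287 of all junctions (SD, n = 5). Pooled over libraries, the AID-WT DMSO share of 0.122% was 26.5 times the AID-KO DMSO limit of 0.00461%, from 3 counts over that group. The counting error of the AID-WT share is not in this fold. The library shares differed (exact permutation test, adjusted p = 0.00794 over 5 comparisons between backgrounds, the smallest it can give). The interval was placed on a peak of junctions, and none of those in it came from AID-KO. This fold and p-value are then a description and no separate support.

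With idelalisib gamma3 made up a larger share of all junctions under each treatment. The DMSO libraries given idelalisib held 22, 16, 25, 23 and 26 gamma3 junctions, or 4.88, 3.93, 5.94, 4.87 and 5.91% of their Igh junctions. The AID-WT DMSO libraries without it stood at 3.86, 4.12, 3.81, 2.27 and 3.85%. Only replicate 2 of the idelalisib group fell inside the range without idelalisib. The mean was 5.11% ± 0.840 with idelalisib and 3.58% ± 0.745 without (SD, n = 5 each), a rise of 1.52 points (0.415 to 2.73, exact permutation test, adjusted p = 0.0317 over 4 comparisons). Counting only the central 3 kb, the rise was 1.48 and missed the threshold (exact permutation test, adjusted p = 0.0529). Of all junctions gamma3 made up 0.193% ± 0.0265 with idelalisib and 0.124% ± 0.0287 without, 1.56 times as high, with no overlap (exact permutation test, adjusted p = 0.00794).

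Under tazemetostat gamma3 also made up more of the Igh junctions with idelalisib than without. The libraries with idelalisib held 9, 19, 9, 19 and 19 gamma3 junctions, or 2.11, 4.41, 2.09, 4.34 and 4.57% of Igh junctions. Those without it held 2, 3, 5, 6 and 4, or 0.826, 1.06, 1.57, 1.65 and 1.15%. Every library with idelalisib lay above every one without. The means were 3.50% ± 1.28 with idelalisib and 1.25% ± 0.350 without (SD, n = 5 each), a rise of 2.25 points (0.698 to 3.51, exact permutation test, adjusted p = 0.0317). In the share of all junctions gamma3 was 3.89 times as high with idelalisib, at 0.132% ± 0.0547 against 0.0338% ± 0.00803 (exact permutation test, adjusted p = 0.00794).

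Under valemetostat both groups came from 1 run. The libraries with idelalisib held 15, 8, 18, 19 and 33 gamma3 junctions, or 4.12, 2.29, 4.47, 4.59 and 4.97% of Igh junctions. The 8 without it held 0 to 8 with a median of 2, or 0 to 6.67% with a median of 1.29%. Replicate 2 without idelalisib stood apart, with 8 of its 120 Igh junctions in gamma3 (95% interval 2.92 to 12.7%). The difference of 2.19 points (-0.0634 to 4.12) missed the threshold (exact permutation test, adjusted p = 0.0513). It was 2.87 without that library and 2.64 without replicate 2 of the idelalisib group, and passed both times (adjusted p = 0.0101 and 0.0384 by the exact test, with 0.0101 to 0.113 over all 19 alternatives). The share of all junctions was 0.154% ± 0.0391 with idelalisib (n = 5) and 0.0263% ± 0.0287 without (n = 8), 5.86 times as high (exact permutation test, adjusted p = 0.00777). Without replicate 2 of the group without idelalisib, that group averaged 0.0167% and the ratio was 9.22. Igh junctions as a whole were 3.78% ± 0.192 of all junctions with idelalisib and 1.37% ± 0.209 without in these valemetostat libraries.

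Ligase4-KO cells had a smaller gamma3 share than AID-WT. The Ligase4-KO DMSO libraries held 20, 18, 12, 9 and 13 gamma3 junctions, or 2.80, 2.84, 2.14, 1.63 and 1.79% of Igh junctions. Of these, 3 libraries lay below every AID-WT DMSO library. The mean was 2.24% ± 0.562 in Ligase4-KO and 3.58% ± 0.745 in AID-WT (SD, n = 5 each), lower by 1.34 points in Ligase4-KO (difference -1.34, interval -2.23 to -0.242, exact permutation test, adjusted p = 0.0317). The call was lost without replicate 1, 2, 3 or 5 of AID-WT DMSO, with differences of -1.27, -1.21, -1.28 and -1.28 (exact permutation test, adjusted p = 0.0513 each, with 0.0159 to 0.0513 over all 16 alternatives). In the share of all junctions gamma3 was 0.0350% ± 0.00836 in Ligase4-KO and 0.124% ± 0.0287 in AID-WT, 0.282 times as high (exact permutation test, adjusted p = 0.00794). The 1 Mb on each side of the bait held 60.8% ± 1.78 of all Ligase4-KO DMSO junctions, against 32.4% ± 1.17 in AID-WT DMSO. Among the junctions outside that window the gamma3 share was 0.0894% ± 0.0221 in Ligase4-KO and 0.183% ± 0.0404 in AID-WT (n = 5 each), and the difference still passed (exact permutation test, adjusted p = 0.00794).

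**Figure D2:**
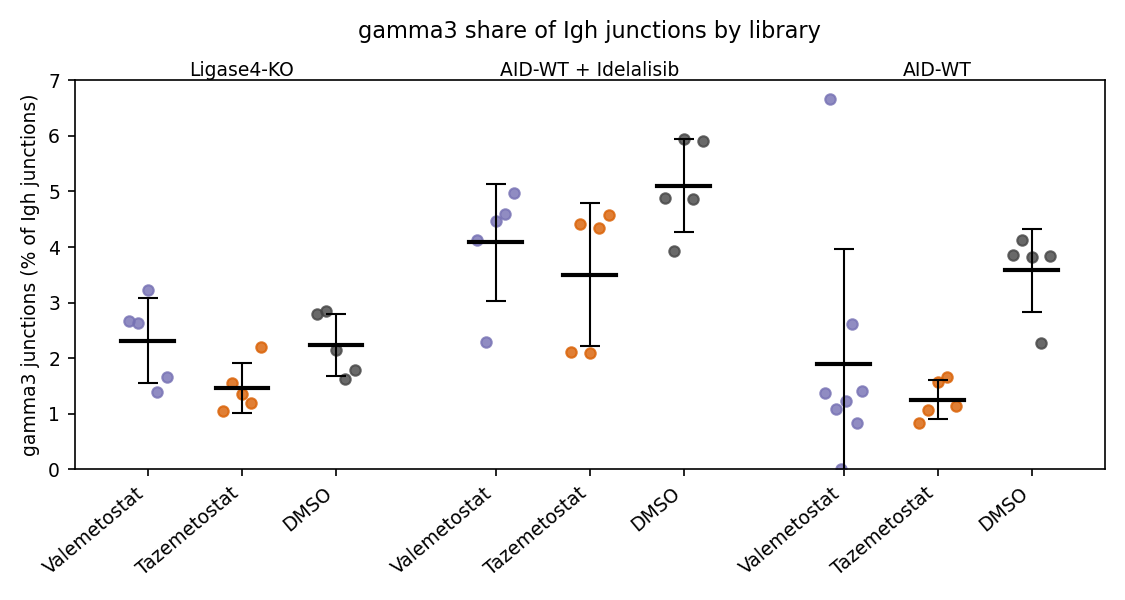
Percent of each library's Igh junctions that lay in the gamma3 interval (vertical axis), by background and treatment, with 1 point per library, the group mean as a thick line and the SD as error bars (those of the AID-WT valemetostat group run below the axis). The 5 AID-WT tazemetostat libraries sit between 0.826 and 1.65%, below all 5 AID-WT DMSO libraries, and 1 AID-WT valemetostat library stands at 6.67%.

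In AID-WT cells without idelalisib the gamma3 share was lower with tazemetostat in both denominators. It fell to 1.25% ± 0.350 of Igh junctions, against 3.58% ± 0.745 with DMSO (SD, n = 5 each), a difference of -2.33 points (-3.02 to -1.44). The groups, which shared a run, did not overlap (exact permutation test, adjusted p = 0.0476 over 6 comparisons). The call was lost when any of the 5 tazemetostat libraries was left out, with differences of -2.22, -2.28, -2.41, -2.43 and -2.30 without replicates 1 to 5 in that order (exact permutation test, adjusted p = 0.0952 each). Among all junctions the gamma3 share was 0.0338% ± 0.00803 with tazemetostat and 0.124% ± 0.0287 with DMSO, 0.272 times as high (exact permutation test, adjusted p = 0.0317 over 8 comparisons, with 0.0212 to 0.0423 over all 18 alternatives).

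With valemetostat the result in AID-WT depended on the denominator. As a share of all junctions gamma3 fell to 0.0263% ± 0.0287 (n = 8), against 0.124% ± 0.0287 with DMSO (n = 5), 0.212 times as high. Of the 8 valemetostat libraries, 7 lay below every DMSO library (exact permutation test, adjusted p = 0.0124, with 0.0101 to 0.0317 over all 21 alternatives). Without replicate 2 the valemetostat mean was 0.0167%, or 0.135 times that with DMSO. Igh junctions as a whole moved the same way, at 1.37% ± 0.209 of all junctions with valemetostat and 3.45% ± 0.177 with DMSO. Among Igh junctions gamma3 was 1.90% ± 2.06 with valemetostat and 3.58% ± 0.745 with DMSO, a difference of -1.68 points (-3.51 to 0.352) that missed the threshold (adjusted p = 0.152, exact permutation test). Here 6 valemetostat libraries lay below and 1, replicate 2, above all DMSO libraries. Without replicate 2 the difference was -2.36 and passed (exact permutation test, adjusted p = 0.0152, with 0.0152 to 0.227 over all 19 alternatives). A valemetostat library held only 92 to 213 Igh junctions, so that 1 junction is a large step in this share.

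Under idelalisib neither inhibitor gave a call. The gamma3 share of Igh junctions was 4.09% ± 1.05 with valemetostat, 3.50% ± 1.28 with tazemetostat and 5.11% ± 0.840 with DMSO (SD, n = 5 each). The difference from DMSO was -1.02 points with valemetostat (-2.55 to 0.316, exact permutation test, adjusted p = 0.152) and -1.60 with tazemetostat (-3.31 to 0.0506, adjusted p = 0.127 by the same exact test). Tazemetostat replicates 1 and 3, at 2.11 and 2.09%, lay below every DMSO library, and the other 3 stood at 4.34 to 4.57%. Without valemetostat replicate 2 the valemetostat difference was -0.569 points. Among all junctions the differences were -0.0389 with valemetostat and -0.0616 with tazemetostat (exact permutation test, adjusted p = 0.127 and 0.102). The valemetostat difference became -0.0486 and passed without DMSO replicate 2 (exact permutation test, adjusted p = 0.0317, with 0.0317 to 0.286 over all 18 alternatives).

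In Ligase4-KO cells, where all 3 treatments shared a run, the valemetostat libraries held 12, 14, 14, 6 and 10 gamma3 junctions and the tazemetostat libraries 5, 8, 8, 6 and 13, against 20, 18, 12, 9 and 13 with DMSO. The share of Igh junctions was 2.67, 2.63, 3.23, 1.39 and 1.66% in the valemetostat libraries and 1.05, 1.55, 1.35, 1.20 and 2.20% in the tazemetostat libraries. The valemetostat mean of 2.32% ± 0.767 lay 0.0766 points above the DMSO mean of 2.24% ± 0.562 (SD, n = 5 each, interval -0.967 to 1.07, exact permutation test, adjusted p = 0.881). The tazemetostat mean of 1.47% ± 0.451 lay below it (difference -0.770 points, interval -1.60 to -0.00487, exact permutation test, p = 0.0476 and adjusted p = 0.127), and 4 of its 5 libraries lay below every DMSO library.

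As a share of all junctions gamma3 fell with tazemetostat in Ligase4-KO to 0.0175% ± 0.00636, against 0.0350% ± 0.00836 with DMSO, 0.501 times as high (exact permutation test, adjusted p = 0.0423). That call did not last when the junctions outside the bait window or outside chromosome 15 were the denominator (differences of -0.0403 and -0.0430, exact permutation test, adjusted p = 0.0635 both times). It was also lost without tazemetostat replicate 1, 2, 3 or 4 (-0.0159, -0.0175, -0.0173 and -0.0164, adjusted p = 0.0847 each by the exact test) and without DMSO replicate 1, 2, 3 or 5 (-0.0154, -0.0153, -0.0177 and -0.0187, adjusted p = 0.0635 each by the exact test). With valemetostat the share of all junctions was 0.0237% ± 0.00772, a difference of -0.0113 (exact permutation test, adjusted p = 0.102). In AID-KO every value was 0 with either inhibitor and with DMSO.

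The 2 inhibitors did not separate in the gamma3 share of Igh junctions, though the intervals are wide. Valemetostat minus tazemetostat was 0.649 points in AID-WT (-1.09 to 2.70), 0.585 with idelalisib (-1.17 to 2.48) and 0.846 in Ligase4-KO (-0.168 to 1.75). The exact permutation tests gave p-values, adjusted over these 3 pairs, of 0.679, 0.548 and 0.190. Without AID-WT valemetostat replicate 2 the AID-WT difference was -0.0315, and with each library left out the idelalisib difference ran over 0.231 to 1.03. As a share of all junctions the differences were -0.00747 in AID-WT, 0.0227 with idelalisib and 0.00617 in Ligase4-KO (exact permutation tests, adjusted p = 0.892, 0.730 and 0.730 over 4 pairs). The AID-WT difference became -0.0171 and passed without that replicate (exact permutation test, adjusted p = 0.0455, with 0.0455 to 1 over all 21 alternatives). With each library left out the idelalisib difference ran over 0.00677 to 0.0397.

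Whether the inhibitor effect itself differed between backgrounds was tested as an interaction by Freedman-Lane permutation. In AID-WT with or without idelalisib, valemetostat and DMSO came from different runs. The valemetostat terms therefore cannot be told apart from run, whereas each tazemetostat effect lies within 1 run. For the share of Igh junctions the tazemetostat effect was -0.770 points in Ligase4-KO and -2.33 in AID-WT, and the difference of 1.56 points passed (permutation test, adjusted p = 0.0287 over 4 terms). On the log2 odds scale this difference was 0.84 and missed the threshold (permutation test, adjusted p = 0.0797). It was also lost without any of 7 libraries, which were Ligase4-KO tazemetostat replicate 5, Ligase4-KO DMSO replicates 4 and 5, AID-WT tazemetostat replicate 1 and AID-WT DMSO replicates 1, 2 and 5 (1.38 to 1.49, adjusted p 0.0511 to 0.0559). The valemetostat effect differed by 1.76 points between Ligase4-KO and AID-WT (permutation test, adjusted p = 0.293), and by 2.44 without AID-WT valemetostat replicate 2 (adjusted p = 0.00588). Between idelalisib and none the differences were 0.662 points for valemetostat and 0.727 for tazemetostat (permutation tests, adjusted p = 0.638 and 0.475). With each library left out they ran over 0.368 to 1.34 for valemetostat and 0.433 to 1.08 for tazemetostat.

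A second set of interactions, on the log2 odds of the share of all junctions, was added after the values were seen. There the inhibitor effect was less negative in each other background than in AID-WT. With idelalisib it was -0.35 for valemetostat and -0.64 for tazemetostat, and in Ligase4-KO -0.58 and -0.99 in the same order, against -2.40 and -1.74 in AID-WT. The differences were 2.05 and 1.09 with idelalisib and 1.82 and 0.75 in Ligase4-KO (permutation tests, adjusted p = 0.0152, 0.0164, 0.0164 and 0.0390 over 4 terms). In percent of all junctions the idelalisib differences were 0.0588 and 0.0287, and neither passed (permutation tests, adjusted p = 0.0516 and 0.351). The Ligase4-KO tazemetostat term was lost without any of 12 of its 20 libraries (0.57 to 0.75, adjusted p 0.0518 to 0.0771). These were Ligase4-KO tazemetostat replicates 2, 3 and 5, Ligase4-KO DMSO replicates 3, 4 and 5, AID-WT tazemetostat replicates 1 and 5, and AID-WT DMSO replicates 1, 2, 3 and 5. Igh as a whole was 3.45% of all AID-WT junctions with DMSO, 2.74% with tazemetostat and 1.37% with valemetostat. In the same order it was 3.798, 3.69 and 3.78% with idelalisib and 1.56, 1.18 and 1.03% in Ligase4-KO. Interactions of Igh as a whole were not tested, so these terms cannot be read as particular to gamma3. Here too the valemetostat terms cannot be told apart from run. AID-WT libraries held only 2 to 6 gamma3 junctions with tazemetostat and 0 to 8 with valemetostat, with 0.5 added to each count.

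Gamma3 was next set against its neighbours, as its percent of the junctions in 3 intervals of 9 kb at gamma3, gamma1 and gamma2b. The series held 799 junctions at gamma1 and 1100 at gamma2b. In AID-WT it was 17.2% ± 14.0 with valemetostat (n = 8), 10.6% ± 2.36 with tazemetostat and 28.9% ± 4.94 with DMSO (n = 5 each). With idelalisib it was 20.2% ± 4.65 with valemetostat, 18.7% ± 6.17 with tazemetostat and 38.2% ± 3.90 with DMSO (n = 5 each). In Ligase4-KO it was 20.9% ± 3.60 with valemetostat, 13.5% ± 2.68 with tazemetostat and 31.7% ± 10.1 with DMSO (n = 5 each).

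The gamma3 part was lower with the inhibitor in all 6 comparisons and passed in 4 of them, each with no overlap between the groups. Tazemetostat minus DMSO was -18.3 points in AID-WT (-23.1 to -12.5), -19.5 with idelalisib (-27.8 to -12.1) and -18.2 in Ligase4-KO (-28.8 to -6.90), and valemetostat minus DMSO was -18.0 with idelalisib (-24.5 to -12.1). Each had an adjusted p of 0.0119 over 6 comparisons by the exact permutation test. The valemetostat differences of -11.7 in AID-WT and -10.8 in Ligase4-KO missed the threshold (exact permutation test, adjusted p = 0.105 and 0.0762). They were -15.6 without AID-WT valemetostat replicate 2 and -13.6 without Ligase4-KO DMSO replicate 4, and passed (exact permutation test, adjusted p = 0.0136 and 0.0190, with 0.0136 to 0.190 and 0.0190 to 0.119 over all alternatives).

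The levels of gamma1 and gamma2b, each as a percent of Igh junctions, stood beside these shifts as follows. With idelalisib gamma1 was 8.71% ± 1.70 of Igh junctions with valemetostat, 8.59% ± 0.827 with tazemetostat and 3.66% ± 1.09 with DMSO, and gamma2b was 7.37% ± 1.32, 6.43% ± 1.0 and 4.57% ± 0.988 in the same order (n = 5 each). In Ligase4-KO gamma1 was 2.14% ± 0.707 with valemetostat, 1.82% ± 0.353 with tazemetostat and 2.37% ± 0.978 with DMSO, and gamma2b was 6.38% ± 0.825 with valemetostat, 7.44% ± 0.798 with tazemetostat and 2.61% ± 0.376 with DMSO (n = 5 each). In AID-WT with tazemetostat gamma1 and gamma2b stood at 3.63% ± 0.660 and 7.04% ± 1.54, against 2.95% ± 0.811 and 5.81% ± 0.990 with DMSO (n = 5 each), next to the lower gamma3 share. In AID-WT with valemetostat they stood at 4.95% ± 2.96 and 3.87% ± 1.05 (n = 8). Differences in gamma1 and gamma2b between treatments or backgrounds, and which gamma interval set each shift, were not tested here.

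**Figure D3:**
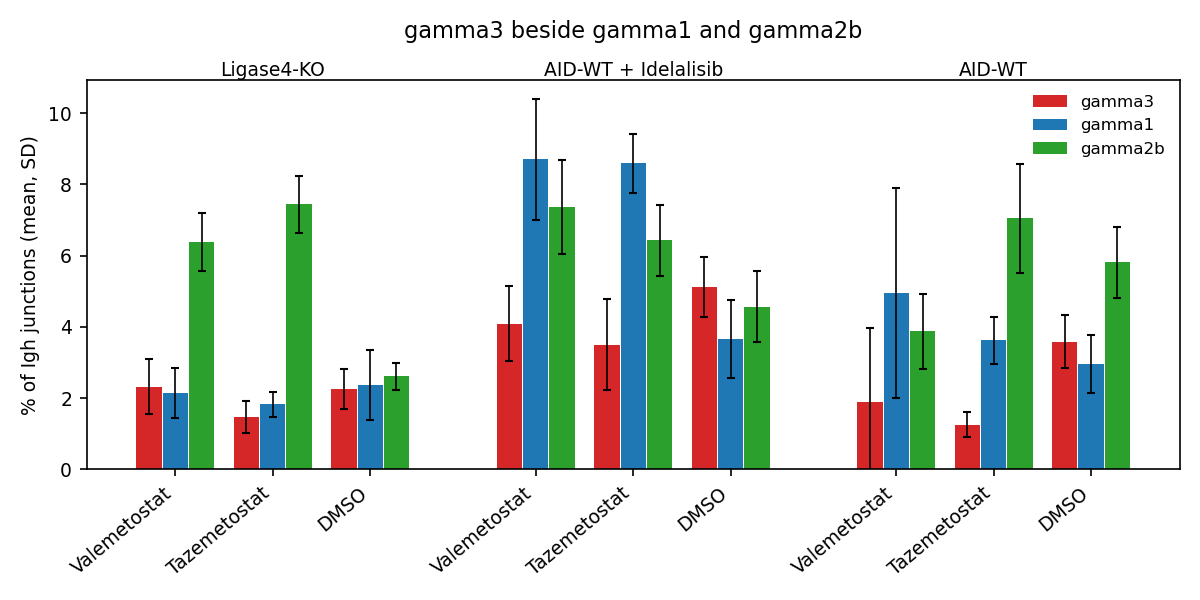
Mean percent of Igh junctions in the gamma3, gamma1 and gamma2b intervals (vertical axis) by background and treatment, with SD over libraries as error bars. In Ligase4-KO gamma2b stands at 6.38 and 7.44% with valemetostat and tazemetostat against 2.61% with DMSO, with idelalisib gamma1 stands at 8.71 and 8.59% against 3.66%, and in AID-WT gamma3 stands at 1.90 and 1.25% against 3.58%.

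Of the 552 gamma3 junctions, 323 were listed on the plus strand and 229 on the minus strand, so 58.5% were plus. What the strand column refers to (the end joined or the read) was not stated. In the 38 libraries with 5 or more junctions in both regions, the plus share was 60.4% ± 17.2 at gamma3 and 48.8% ± 4.49 at mu (SD), higher at gamma3 in 25 of 38 and by 11.6 points on average (sign-flip permutation test, adjusted p = 0.00128 over 4 regions). Against alpha, at 52.5% ± 4.54, it was higher by 7.92 points, in 23 of 38 libraries (sign-flip permutation test, adjusted p = 0.0216). Against gamma2b and gamma1 the differences were 5.55 and 7.11 points and did not pass (sign-flip permutation test, adjusted p = 0.158 for both). With 10 or more junctions per region asked for, that against gamma1 was 8.59 and passed (sign-flip permutation test, adjusted p = 0.0205). Group means did not all follow this average. In Ligase4-KO DMSO the plus share was 46.2% at gamma3, 56.8% at alpha and 82.1% at gamma2b (n = 5), and in AID-WT with valemetostat 45.2% at gamma3 (n = 7) and 62.1% at mu (n = 8). Of that last group only replicate 2 held 5 or more gamma3 junctions and entered the sign-flip tests. Along the peak the plus share was 69.9% of 83 junctions in the kilobase below the densest, 58.9% of 319 in the densest and 52.0% of 123 above it.

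In Ligase4-KO the strand of gamma3 junctions differed with valemetostat. The plus strand held 8 of 12, 9 of 14, 11 of 14, 6 of 6 and 8 of 10 junctions in the valemetostat libraries, and 12 of 20, 7 of 18, 5 of 12, 4 of 9 and 6 of 13 in the DMSO libraries. Every valemetostat library had a higher plus share than every DMSO library. The means were 77.9% ± 14.2 with valemetostat and 46.2% ± 8.18 with DMSO (SD, n = 5 each), a difference of 31.7 points (16.0 to 49.0, exact permutation test, adjusted p = 0.0317 over 4 comparisons), in a test added after these values were seen. With at least 10 junctions per library the difference was 25.7 and missed the threshold (adjusted p = 0.0857, exact permutation test). It was 26.2, 29.8 and 30.5 without valemetostat replicate 4, DMSO replicate 2 or DMSO replicate 3, and missed each time (exact permutation test, adjusted p = 0.0635).

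With tazemetostat the plus strand held 2 of 5, 8 of 8, 3 of 8, 5 of 6 and 10 of 13 gamma3 junctions in Ligase4-KO, or 67.6% ± 27.6. This range covered that of DMSO on both sides, and the difference of 21.3 points did not pass (-10.7 to 50.0, exact permutation test, adjusted p = 0.317). It ran over 13.2 to 28.8 with each library left out, the lowest without tazemetostat replicate 2. At gamma2b in the same cells the plus share was 66.6% ± 13.5 with valemetostat, 66.1% ± 5.01 with tazemetostat and 82.1% ± 7.76 with DMSO (n = 5 each). With idelalisib the gamma3 plus share was 52.9% ± 9.12 with valemetostat, 53.7% ± 11.9 with tazemetostat and 57.8% ± 8.08 with DMSO (n = 5 each), and neither difference passed (exact permutation test, adjusted p = 0.508 each). AID-WT with an inhibitor had too few libraries with 5 or more gamma3 junctions for this test.

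**Figure D4:**
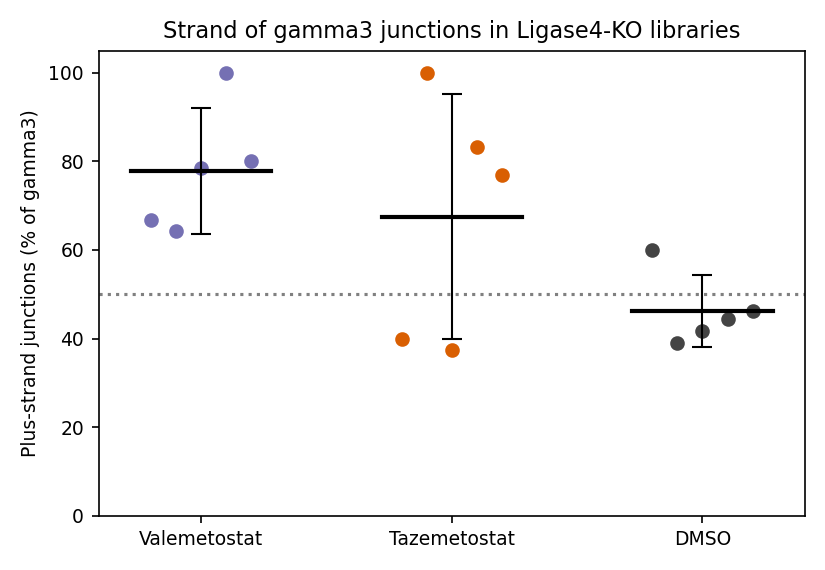
Percent of gamma3 junctions listed on the plus strand (vertical axis) in each Ligase4-KO library by treatment, with the group mean as a thick line, the SD as error bars and a dotted line at equal shares of both strands. The 5 valemetostat libraries lie above all 5 DMSO libraries, and the 5 tazemetostat libraries spread from 3 of 8 to 8 of 8 junctions.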

How the data were processed

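LAM-HTGTS junctions were measured in 60 CH12F3 libraries of 12 groups, as titles and genotype and treatment labels give them. The authors deposited 1 headerless list per library, with a junction position, strand and a score from 16 to 222 of unstated meaning per line, used in no test. Positions are on mm9, per the submitters' processing notes. Sequencing was paired-end on a MiSeq, per the labels. Which aligner, caller and filters made the lists, and whether positions count from 0 or 1, is not given in the sources used here.

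Junctions per interval, of Igh (chr12:114300000-117299999) and of all junctions were tallied per library with Python 3.11.15, numpy 2.4.6, pandas 2.3.3, scipy 1.17.1 and matplotlib 3.10.9. Within-library repeats of position and strand, 280658 in all, lay only on chromosome 15, the bait's, and were kept. The gamma1, gamma2b, mu and alpha intervals are 9 kb, placed around their densest DMSO kilobase as for gamma3. Each densest kilobase was sought on a fixed 1 kb grid only. Differences of mean percents were tested by exact permutation, two-sided, with Benjamini-Hochberg adjustment per set of comparisons and a threshold of 0.05. The 95% intervals of differences invert the exact test. Interactions and the sign-flip tests used 100000 draws, and log2 odds had 0.5 added to each count. AID-KO, with 58 Igh junctions, was left out of shares of Igh. The test code was also tried on simulated counts, drawn with binomial error alone and no further spread between libraries. No value reported here comes from those counts.

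The interval, lists and tests were chosen with earlier results of these data known. Named are the gamma3 interval, its 1 kb bins, the densest 200 bp per background, the 3 most recurrent positions and the 4 other switch intervals. Gene order was taken from a RefSeq table of a later build, and no sequence is printed. Alternatives covered denominators, repeats, recurrent positions, interval width, scale, pooling, a replicate block and each library left out.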

Additional observations from a re-analysis of the deposited data

Results flagged for a closer look

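In 27 checks of a measure within a group for a library far from the others, 4 values stood out, where chance gives about 1 in 20. AID-WT valemetostat replicate 2 stood above its group in both shares, with 6.67% of its Igh junctions and 0.0934% of all its junctions in gamma3. AID-WT DMSO replicate 4 was low, at 2.27% of Igh junctions. Replicate 2 of valemetostat with idelalisib was low, at 0.0861% of all junctions.

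The inhibitor effect on a gamma3 share differed between backgrounds in 5 interaction tests. Those on the share of all junctions were added after the values were seen, and Igh as a whole was not tested in this way. The valemetostat terms set groups from different runs against each other and cannot be told apart from run. The tazemetostat effect on the share of Igh junctions was 1.56 points less negative in Ligase4-KO than in AID-WT. On the log2 odds of the share of all junctions, the valemetostat effect was less negative than in AID-WT by 2.05 with idelalisib and by 1.82 in Ligase4-KO, and the tazemetostat effect by 1.09 and 0.75 in the same order. In log2 odds of the share of Igh junctions the matching differences all missed the threshold. For valemetostat they were 0.73 with idelalisib and 1.12 in Ligase4-KO (permutation tests, adjusted p = 0.286 and 0.137). For tazemetostat they were 0.81 and 0.84 (permutation tests, adjusted p = 0.0817 and 0.0797). Terms lost on another scale or without a library are given above.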

How the results depend on the processing

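Few gamma3 junctions per library (0 to 33) limit every value. Of 302 values under other settings, 290 were counted as keeping their direction and side of the threshold, as were 613 of 683 with 1 library left out. The 290 include every replicate-block value, though none of these had a p below 0.0625 by exact sign-flip. Results that passed elsewhere thus kept only their direction with the block. Comparisons within AID-KO, where all values are 0, also count as kept. No cause was tested for those that changed, and leaving out a library also shrinks a group. In Ligase4-KO, the tazemetostat fall in the share of all junctions was -0.0403 and -0.0430 with denominators outside the bait window and outside chromosome 15, and lost. Counting the central 3 kb only, the valemetostat difference in Ligase4-KO turned to -0.0725 points of Igh and the idelalisib rise in DMSO, 1.48, was lost. The idelalisib rise under valemetostat passed as log2 odds (1.26) and as a pooled share (2.38). With at least 10 junctions per library, the central 3 kb difference for tazemetostat with idelalisib turned to -0.50, the Ligase4-KO valemetostat strand difference (25.7) was lost and that between gamma3 and gamma1 (8.59) passed. The Ligase4-KO tazemetostat interaction on Igh was 0.84 in log2 odds and lost. In percent of all junctions those with idelalisib, 0.0588 for valemetostat and 0.0287 for tazemetostat, were lost too.

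With each library left out, the share of Igh junctions against DMSO ran in AID-WT over -2.36 to -1.41 for valemetostat and -2.66 to -2.20 for tazemetostat, and in Ligase4-KO over -0.153 to 0.309 for valemetostat. The share of all junctions ran over -0.0486 to -0.0219 for valemetostat with idelalisib and -0.0201 to -0.0153 for tazemetostat in Ligase4-KO. Between backgrounds, the share of Igh ran over -1.67 to -1.19 for Ligase4-KO against AID-WT and 1.91 to 2.87 for idelalisib under valemetostat. Valemetostat against tazemetostat in AID-WT ran over -0.0315 to 0.921 (Igh) and -0.0171 to -0.00371 (all). The gamma3 part of the gamma junctions with valemetostat ran over -15.6 to -9.21 in AID-WT and -13.6 to -7.64 in Ligase4-KO. The central 3 kb share ran over -1.66 to 0.492 (valemetostat) and -1.05 to 1.25 (tazemetostat) with idelalisib, and -4.36 to 1.58 for tazemetostat in Ligase4-KO. The densest 1 kb share ran in Ligase4-KO over -0.459 to 9.82 (valemetostat) and -6.10 to 9.88 (tazemetostat), and against AID-WT over -34.3 to -23.3 (Ligase4-KO) and -5.37 to 3.11 (idelalisib). The plus-strand share ran over 26.2 to 35.1 for valemetostat in Ligase4-KO and -5.68 to 1.67 for idelalisib against none in DMSO. The interactions on Igh in Ligase4-KO ran over 1.49 to 2.44 (valemetostat) and 1.38 to 1.89 (tazemetostat), and that of tazemetostat in log2 odds of all junctions over 0.57 to 0.91.

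Same-numbered libraries did not deviate together over 1 Mb windows (r from -0.130 to 0.125, with no comparison of 17 above 0.1 in every pair). No pairing by number was seen, but windows needed a mean of only 5 junctions, so low correlations cannot exclude it. With the replicate block the AID-WT tazemetostat difference in the share of Igh was -2.33, and 5 pairs cannot give p below 0.0625 by exact sign-flip. Log2 odds were not run within AID-KO, where all counts are 0. The comparisons within AID-WT and idelalisib that pair tazemetostat with DMSO, idelalisib against none under valemetostat and all within Ligase4-KO lie within 1 run as they stand. Of those that span runs, only AID-KO has both groups in some run, and all its values are 0.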
